A study of Mus musculus with 4 samples.

Results

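The integrin subunit genes used by mouse natural killer (NK) cells were examined for N6-methyladenosine (m6A) in a list of peaks from methylated RNA immunoprecipitation sequencing (MeRIP-seq). The set held 10 genes, 7 for alpha subunits (Itga1, Itga2, Itga4, Itgal, Itgam, Itgav and Itgae) and 3 for beta subunits (Itgb1, Itgb2 and Itgb7). A peak belonged to the set when the list gave it the Ensembl identifier of one of these genes, which held for 15 of 20727 distinct peaks. Each of the 10 genes had at least 1 peak, and 12351 genes had one in all.

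Splenic NK cells were sorted from mice of C57BL/6 background, for which the MeRIP-seq methods name no genotype. The cells had first been amplified in the animals by injection of the plasmid pLIVE-IL-15, so that all libraries came from NK cells exposed to IL-15 in vivo. There were 2 libraries of fragments pulled down with an m6A-specific antibody and 2 input libraries without antibody, both from poly(A) RNA. The list gives each peak 1 fold enrichment, the ratio of immunoprecipitate over input, and 1 log10 p, with 0 columns per sample. No error between replicates and no library depth could therefore be had, and the order of fold enrichments below cannot be set against a spread. Neither the labels nor the methods say how many mice each library came from.

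Integrins are cell surface receptors made of 1 alpha and 1 beta chain that bind ligands on other cells or in the matrix, and their short tails link to the actin cytoskeleton. In NK cells they carry the contact with target cells and the entry into tissues. Itgal pairs with Itgb2 to form LFA-1, which binds ICAM proteins at the immune synapse, and Itgam pairs with the same beta chain to form Mac-1 and encodes CD11b, a marker of NK cell maturation. Itga4 pairs with Itgb1 or Itgb7 and binds VCAM-1 or MAdCAM-1. Itga1 and Itga2 encode the collagen-binding chains CD49a and CD49b, Itgav the chain of RGD-binding receptors, and Itgae the chain CD103, which pairs with Itgb7 and binds E-cadherin. The methyl mark is written co-transcriptionally on the adenosine of a motif named DRACH, in which D stands for any base but C, R for a purine and H for any base but G. GGAC is its core form seen most often.

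Marker genes of NK cells and other cells were read by whether they had a peak, since the list holds no expression values. All 10 NK cell markers had one, Ncr1, Klrb1c, Klrk1, Eomes, Tbx21, Prf1, Gzma, Gzmb, Il2rb and Cd244a. Of the markers of other cells, 3 of 6 for T cells (Cd3d, Cd3e and Cd3g), 4 of 4 for myeloid cells and 2 of 2 for erythroid cells had a peak, whereas Cd4, Cd8a and Cd8b1 had none. Among B cell genes Cd79a and Cd79b had a peak and Ms4a1 had none. Of all protein-coding genes 46.2% had one. Since every myeloid and erythroid marker had a peak as well, presence of a peak cannot check the NK cell label. Itgam, Itgav, Itgb2 and Itgax are also transcribed in myeloid cells, and the part of such RNA in these peaks was not tested. Nor was the part of RNA from other cells tested for the peaks of any other integrin gene.

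Of the 15 integrin peaks, 11 lay on an exon of a protein-coding transcript of their gene, and these came from 8 genes. The other 4, those of Itga1 and Itgae and 1 of 3 peaks of Itga4, touched 0 nt of any protein-coding transcript. The DRACH sites with the GGAC core inside the 11 peaks are shown first, since GGAC is compared between alpha and beta subunit genes below. There were 9 of them, in 6 peaks of Itga4 and the 3 beta genes. Each window has 25 nt in the 5′ to 3′ direction of the transcript, read from GRCm38, with the 5 letters of the motif in capitals.
Itga4, 839 nt past the stop codon (chr2:79327442-79327466, plus strand): ttaaagcagaGGACCtgaagactgc
Itga4, 6297 nt past the stop codon (chr2:79332900-79332924, plus strand): acctagcagaGGACCctgtccctcc
Itgb1, 180 nt past the stop codon (chr8:128732256-128732280, plus strand): tccatgccagGGACTgacagaagac
Itgb1, 258 nt past the stop codon (chr8:128732334-128732358, plus strand): ccttccttctGGACCattggaatca
Itgb2, 163 nt past the stop codon (chr10:77565391-77565415, plus strand): gggtttccagGGACTtgtcttccga
Itgb7, codon 108 (chr15:102224626-102224650, minus strand): aggtgctgcaGGACAagccgctcag
Itgb7, codon 738 (chr15:102216559-102216583, minus strand): cgtggcagtgGGACTagggctggtt
Itgb7, codon 792 (chr15:102216195-102216219, minus strand): cgcttccaagGGACAaacggtcggt
Itgb7, 23 nt past the stop codon (chr15:102216125-102216149, minus strand): ttgtcttggaGGACAgtggagatag

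The remaining 5 peaks on coding transcripts, those of Itga2, Itgal, Itgam and Itgav, held DRACH sites without the GGAC core. For these the DRACH site nearest to the centre of the peak is shown in the same way, because it is the motif that the peak is centred on most closely.
Itga2, 3270 nt past the stop codon (chr13:114833203-114833227, minus strand): tgaatttatcTGACTtcttaaaaac
Itgal, 1428 nt past the stop codon (chr7:127335026-127335050, plus strand): gtaccaaataGAACCaaaattatca
Itgam, 612 nt past the stop codon (chr7:128117977-128118001, plus strand): caaagtacaaAAACCaaaagatact
Itgam, 913 nt past the stop codon (chr7:128118278-128118302, plus strand): aaacaagtggTAACAcattttttta
Itgav, 3448 nt past the stop codon (chr2:83806771-83806795, plus strand): acattgggtgAGACAtaagatgagt

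All 10 integrin genes had a peak under their identifier, against 46.2% of protein-coding genes, though that of Itgae touched none of its exons. With the peak required to touch an exon of a protein-coding transcript it was 8 of 10, against 44.6%. A peak needs transcripts to be sequenced, and the list gives no transcript levels beside which to read these shares. Single peaks were found in 6 genes, 2 peaks in Itga1, Itgam and Itgb7, and 3 in Itga4. The median fold enrichment of the 15 peaks was 1.93, with a range from 1.18 to 9.48, whereas it was 2.37 over the 18250 peaks of protein-coding genes. At least 5-fold were 3 of 15 peaks (20%), against 29.5% of peaks of protein-coding genes, and 11 of 15 (73.3%) had a p-value under 0.001, against 62.3%.

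The peaks split by what they covered. The 11 peaks on coding transcripts had fold enrichments from 1.18 to 2.65 with a median of 1.54, and all 11 had a p-value under 0.001 (65.3% of all peaks placed on a coding transcript did). The 4 peaks off the coding transcripts had fold enrichments from 2.32 to 9.48 and log10 p from -2.88 to -1.69, so none of them reached a p-value of 0.001, which 41.2% of such peaks in protein-coding genes did. At least 5-fold were 3 of these 4, the only such integrin peaks, and 53.1% of such peaks in protein-coding genes. Peaks that touched no coding transcript made up 26.7% of the integrin peaks, 9.85% of all peaks of protein-coding genes, and 17.7% of those of at least 5-fold.

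**Figure D1:**
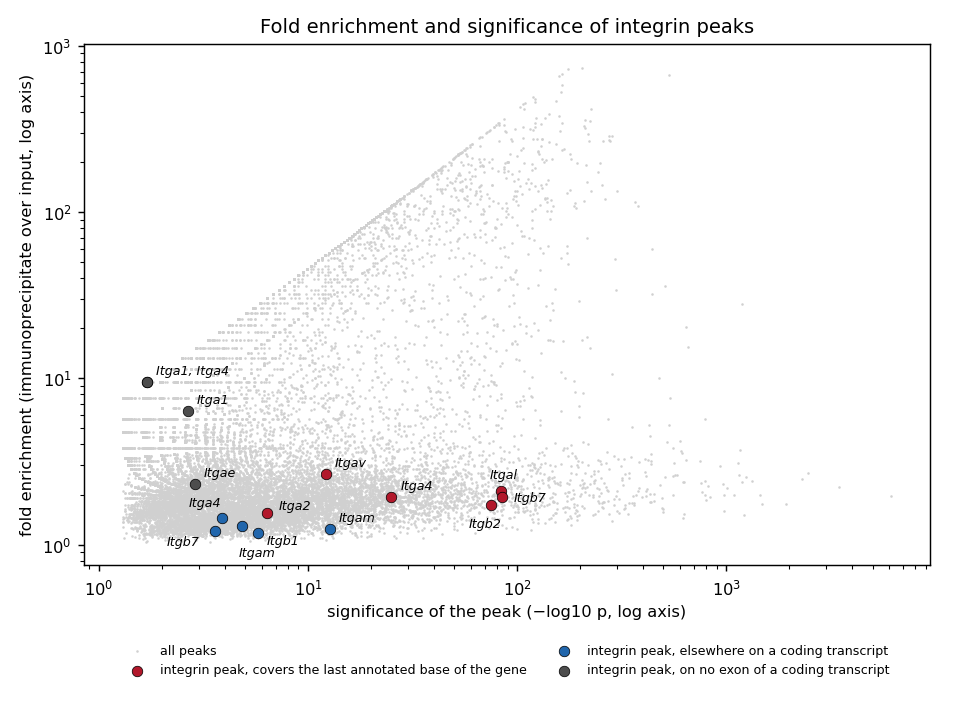
Fold enrichment against significance for all 20727 peaks (grey) and the 15 integrin peaks (coloured by position), on log axes; each point is 1 peak. The peaks of Itga1 and the Itga4 peak with the same values sit at 6.32 to 9.48-fold on the left, at weak significance, while those of Itgal and Itgb2 and the distal peak of Itgb7 sit on the right between 1.74 and 2.09-fold.

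LFA-1, the main adhesion receptor of the NK cell synapse, had some of the most significant peaks of the set on both of its chains. Itgal (ENSMUSG00000030830, chromosome 7, plus strand) had 1 peak at 127334808 to 127335138, enriched 2.09-fold (log10 p -83.5). It lay in exon 31 of 31 of the longest coding transcript, in the 3′ UTR, and was centred 1362 nt past the stop codon. Itgb2 (ENSMUSG00000000290, chromosome 10, plus strand), the beta chain shared by LFA-1 and Mac-1, had 1 peak at 77565379 to 77565708, enriched 1.74-fold (log10 p -74.6) and centred 292 nt past the stop codon in exon 16 of 16. Only 3.22% and 3.72% of all peaks were more significant than these, while by fold enrichment they were unremarkable, with 38.9% and 25.4% of all peaks below them. The Itgb2 peak filled 69.1% of a 3′ UTR of 446 nt, and the Itgal peak 21.6% of one of 1527 nt.

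Itgam, the alpha chain of Mac-1, differed from its partner. It (ENSMUSG00000030786, chromosome 7, plus strand) had 2 peaks in the 3′ UTR of exon 30 of 30, both with low fold enrichment. The first, at 128117923 to 128118072, was enriched 1.24-fold (log10 p -12.7) and centred 620 nt past the stop codon. The second, at 128118252 to 128118431, was enriched 1.29-fold (log10 p -4.85) and centred 964 nt past it. The gap between them was 179 nt. Both ranked among the lowest fold enrichments of the list, with 2.86% and 4.65% of all peaks below them. Both belonged to the 2 of 4 coding isoforms that use this last exon.

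The beta chain Itgb7 (ENSMUSG00000001281, chromosome 15, minus strand), partner of Itga4 and Itgae in gut homing and retention, had the most significant peak of the 10 genes. It lay at the gene end, from 102215995 to 102216935, was enriched 1.93-fold (log10 p -84.9) and, as the distal of 2 Itgb7 peaks, covered the stop codon. Of its 478 exonic nt, 165 were the whole 3′ UTR, and the rest were codons 703 to 807, the last being the stop, which encode the C-terminal end of the protein. The list labels it 3′ UTR, but its centre was in the coding sequence, at -74 nt from the end of the stop codon. The second Itgb7 peak, at 102224436 to 102224700, was the single integrin peak far inside a coding sequence. It lay in exon 3 of 15 over codons 87 to 147 and was enriched 1.2-fold (log10 p -3.61). Together the 2 peaks covered 24.5% of the transcript, the largest share among the 8 genes, in the shortest of their transcripts (2683 nt).

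Itgb1 (ENSMUSG00000025809, chromosome 8, plus strand), the common beta chain of Itga1, Itga2 and Itga4, had 1 peak at 128732247 to 128732485. Its fold enrichment of 1.18 was the lowest of the set, with 1.25% of all peaks below it, at a log10 p of -5.76. The peak was centred 278 nt past the stop codon in exon 16 of 16 and held 8 DRACH sites in 239 nt, or 33.5 per kb, the highest density among the 11 peaks.

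The alpha chain Itga4 (ENSMUSG00000027009, chromosome 2, plus strand) had 2 peaks in a long 3′ UTR of 6508 nt. The distal one, at 79332853 to 79333123, was enriched 1.93-fold (log10 p -25) and centred 6373 nt past the stop codon. The proximal one, at 79327424 to 79327484, was 61 nt wide, enriched 1.44-fold (log10 p -3.86) and centred 839 nt past it. The centres of these were 5534 nt apart. A further peak, at 79257166 to 79257316, was enriched 9.48-fold (log10 p -1.69). It lay in intron 2 of 27 of the coding transcript, 867 nt from the nearest exon of it, and in exon 2 of 2 of a processed transcript (ENSMUST00000155105).

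Itga2 and Itgav each had 1 peak at the far end of a long 3′ UTR. Itgav (ENSMUSG00000027087, chromosome 2, plus strand) had it at 83806677 to 83806916, centred 3461 nt past the stop codon. It was enriched 2.65-fold (log10 p -12.2), more than any other of the 11 peaks on coding transcripts. Itga2 (ENSMUSG00000015533, chromosome 13, minus strand), whose product CD49b is the DX5 antigen used to identify mouse NK cells, had it at 114833081 to 114833471, centred 3209 nt past the stop codon and enriched 1.54-fold (log10 p -6.39). In both genes the peak lay in exon 30 of 30 and took up a small part of the 3′ UTR, 6.7% in Itgav and 11.5% in Itga2.

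For Itga1, the gene of the tissue-residency marker CD49a, no peak touched the coding transcript. Itga1 (ENSMUSG00000042284, chromosome 13, minus strand) had a peak at 115008643 to 115008793, enriched 9.48-fold (log10 p -1.69), in exon 9 of 9 of a processed transcript (ENSMUST00000224268). Another at 115010648 to 115010768 was enriched 6.32-fold (log10 p -2.66), in exon 8 of 8 of a retained-intron transcript (ENSMUST00000224119). Both lay inside intron 8 of 28 of the coding transcript, at least 1392 nt from its exons. The 3′ UTR of 6994 nt, the longest of the set, held none. The pair of values 9.48 and -1.69, found at Itga1 and at the intronic peak of Itga4, occurred in 845 peaks of the list, and the pair 6.32 and -2.66 in 20 peaks, whereas the values of each of the other 12 integrin peaks occurred once.

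The peak named for Itgae, which encodes CD103, lay on another gene. Itgae (ENSMUSG00000005947, chromosome 11, plus strand) had 1 peak at 73135485 to 73135933, enriched 2.32-fold (log10 p -2.88) and labelled 3′ UTR in the list. It touched 0 nt of Itgae exons and lay in intron 26 of 30, 1387 nt from the nearest one. All 449 nt of it lay on Haspin (ENSMUSG00000050107, chromosome 11, 73135485 to 73138294, minus strand), a histone kinase gene with 1 exon that sits inside this intron. On Haspin the peak was centred in the 3′ UTR, 288 nt past the stop codon, and covered the last annotated base. Haspin itself had 0 peaks under its own identifier. Of all peaks of protein-coding genes, 3.11% touched no exon of the gene they were named for.

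Most integrin peaks on coding transcripts were centred in the 3′ UTR, more than 200 nt from the stop codon. By the centre of the exonic part, 9 of the 11 peaks on coding transcripts were in the 3′ UTR (81.8%), against 56.5% of 15706 placed peaks, and 10 of 11 were in the last exon (90.9%), against 66.7%. Only the distal peak of Itgb7, 1 of 11 (9.09%), was centred less than 200 nt from the stop codon, against 22.3% of placed peaks. With a window of 400 nt it was 3 of 11, so this small count depends on the window. The centres of the 3′ UTR peaks were spread from 278 nt past the stop codon in Itgb1 to 6373 nt in Itga4.

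**Figure D2:**
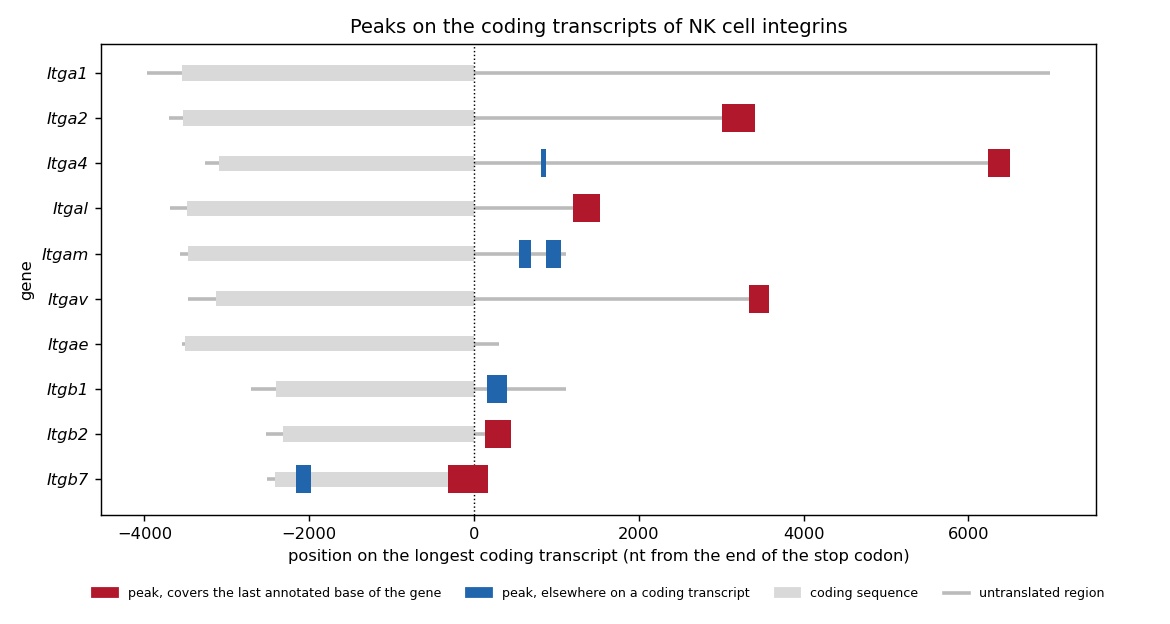
Longest coding transcript of each of the 10 genes, drawn to scale in nt from the end of the stop codon (dotted line), with the coding sequence as a wide bar, untranslated regions as a line and peaks as blocks. Red blocks, in Itga2, Itga4, Itgal, Itgav, Itgb2 and Itgb7, run to the last annotated base, and Itga1 and Itgae carry no block.

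In 6 of the 11 peaks (54.5%) the peak ran to the last annotated base of the gene, which was the case in 20.9% of all placed peaks. These were the peaks of Itga2, Itgal, Itgav and Itgb2 and the distal peaks of Itga4 and Itgb7. Among peaks centred in the 3′ UTR the shares were 5 of 9 (55.6%) and 28.7%. The fold enrichments of the 6 peaks at the gene end were 1.54, 1.74, 1.93, 1.93, 2.09 and 2.65, and those of the other 5 were 1.18, 1.2, 1.24, 1.29 and 1.44. The ranges did not overlap. Neither did the exonic lengths, at 240 to 478 nt for the 6 and 61 to 239 nt for the other 5. Position and length therefore cannot be told apart in these peaks. The same order was seen in medians over all 3′ UTR peaks, at 2.62 (interquartile range 1.93 to 7.59) in 2546 peaks at a gene end and 1.87 (1.53 to 2.79) in 6335 others. These interquartile ranges overlap, and the Itgb7 peaks, centred in the coding sequence, have no counterpart among them. The split by gene end was made after the positions had been seen, and no test was run on it.

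**Figure D3:**
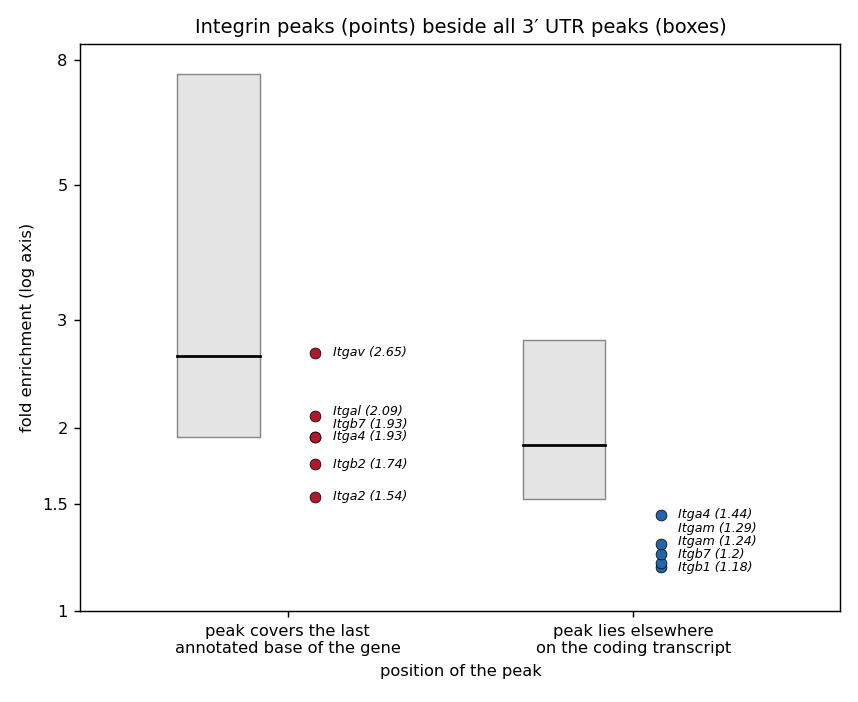
Fold enrichment (log axis) of the 11 integrin peaks on coding transcripts (points, each with its value), for peaks that cover the last annotated base of the gene and for those that do not. Boxes give the median and interquartile range of all peaks centred in the 3′ UTR, and the points lie between 1.54 and 2.65 on the left and between 1.18 and 1.44 on the right; the Itgb7 points are peaks centred in the coding sequence.

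The DRACH motif was counted on the strand of the gene, with overlapping matches included. All 11 peaks held at least 1 (89.9% of all placed peaks did), and the 55 sites in 2828 nt gave 19.4 per kb (exact Poisson 95% interval 14.7 to 25.3, counting error only). The same transcripts outside their peaks held 21.7 per kb (20.3 to 23.2) and all placed peaks 20 per kb. The density inside the integrin peaks was thus within counting error of that outside them. The commonest form was AAACT with 8 sites, while the form GGACT had 3.

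The GGAC core, which is part of some DRACH matches, was found in 4 of 4 peaks of beta subunit genes and in 2 of 7 of alpha subunit genes. It occurs in 54.4% of all placed peaks, and more often in longer ones. Among placed peaks within 10% of the same exonic length it occurred in 81.5%, 67.5%, 60.5% and 50.4% of peaks for the distal Itgb7, the Itgb2, the Itgb1 and the exon 3 Itgb7 peak. The like-length shares for the 5 alpha peaks without it ran from 42.5% (the first Itgam peak) to 72.3% (Itga2). For the 2 alpha peaks with it, both of Itga4, the shares were 21.5% (the peak of 61 nt) and 67.1% (the distal peak). By density, the beta peaks held 7 sites in 1205 nt (5.81 per kb, 2.34 to 12) and the alpha peaks 2 in 1623 nt (1.23 per kb, 0.149 to 4.45), and these intervals overlap. The alpha transcripts do hold GGAC elsewhere, 35 times in Itgal, 33 in Itgav, and 21 each in Itga2 and Itgam, in each case outside the peak. In the beta transcripts GGAC was denser outside the peaks than inside for Itgb2 (7.51 against 3.25 per kb) and Itgb7 (8.4 against 6.08), and less dense for Itgb1 (3.64 against 8.37). It was also less dense outside the peaks for Itga4 (3.18 against 6.02), the alpha gene with GGAC in its peaks. All placed peaks held 3.99 per kb, and the 8 integrin transcripts outside their peaks 4.69. For DRACH as a whole the alpha and beta peaks held 19.7 and 19.1 sites per kb. For RRACH, with a purine in place of D, they held 11.1 and 12.4. The split by subunit was not among the planned results, and no test was run on it. Of the 4 beta peaks 2 were from Itgb7. GGACT was present in 3 of 11 peaks (27.3%), those of Itgb1 and Itgb2 and the distal one of Itgb7, against 26.5% of all placed peaks.

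Of the other 16 integrin subunit genes of the mouse, 9 had a peak under their identifier (56.2%), against 46.2% of protein-coding genes. With the peak required to touch an exon of a protein-coding transcript it was 8 of 16, against 44.6%. Itgax, which encodes CD11c and pairs with Itgb2, had the most significant peak of any integrin gene, at a log10 p of -121 and an enrichment of 1.79-fold. It was centred 224 nt past the stop codon and, unlike the Itgb2 peak, ran from the stop codon to the last base of the gene. Peaks near the stop codon were also found in Itgb5 (2.17-fold, log10 p -59, 133 nt past it), Itga9 (1.51-fold, 185 nt past it) and Itgb4 (4.93-fold, at -93 nt). Itgb3, the platelet and RGD-binding beta chain, had a 1.9-fold peak at the gene end, and Itga10 a 4.27-fold peak 800 nt past the stop codon. The peaks of Itgb3, Itga10 and Itgb4 had p-values above 0.001.

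At least 5-fold enrichment was seen in 4 of the 10 peaks of these other genes (40%), against 29.5% of peaks of protein-coding genes, and their median was 4.6, against 2.37. The 4 peaks differed in kind. Itgb5 had one of 8.53-fold in the 5′ UTR of exon 1, and Itga5, the fibronectin receptor chain, one of 8.22-fold with a log10 p of -46 that is labelled 3′ UTR but was centred in the coding sequence in exon 14 of 30. The Itgb6 peak of 45.5-fold spanned 124352 nt of the genome and 100% of its transcript. The peak named for Itgad, of 7.27-fold, touched 0 nt of its exons and lay with all 233 nt on an exon of Gm39091. No peak carried the identifier of Itga2b, Itga3, Itga6, Itga7, Itga8, Itga11 or Itgb8. With peaks under any identifier counted, 9 of the other integrin genes had one on an exon of a protein-coding transcript. A peak listed under another gene thus touched a further one of these genes, which is not named here.

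Genes that switch integrins on or link them to actin were read beside the receptors. Of 32 such genes 24 had a peak (75%), against 46.2% of protein-coding genes. Their 54 peaks had a median fold enrichment of 1.67, below the 2.37 over all peaks of protein-coding genes. At least 5-fold were 5 of them (9.26%), against 29.5%, and 31 of 48 placed peaks (64.6%) were in the 3′ UTR, against 56.5% of all placed peaks. Within 200 nt of the stop codon lay 14 (29.2%), against 22.3% of all placed peaks. For the integrin genes themselves this was 1 of 11 (9.09%), a count too small to set beside these shares. The last base of the gene was covered by 14 of 48 (29.2%), against 20.9%. The talin gene Tln1, the GTPase gene Rap1a and Rasgrp2 had 4 peaks each. No peak carried the identifier of the 3 kindlin genes Fermt1, Fermt2 and Fermt3, or of Rap1gap2, Rassf5, Parva, Parvb and Itgb1bp1. For Rassf5, the Rap1 effector that activates LFA-1, a 1.76-fold peak was listed under Eif2d. All 449 nt of it lay on exons of a protein-coding transcript of Rassf5. For Itgb1bp1 a 1.91-fold peak was listed under Cpsf3, with 271 nt of its span of 9093 nt on exons of a protein-coding transcript of Itgb1bp1.

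The highest fold enrichments among these genes and 8 ligand genes were at Skap2 (56.9) and Apbb1ip (32.2), both adaptors of integrin activation. As at Itga1, these peaks touched 0 nt of a coding transcript. Next were Tln2 and the LFA-1 ligand gene F11r, with 9.48 each, and Rasgrp2, the activator of Rap1, and Skap1 with 8.22 each. Of these the Rasgrp2 peak had the strongest significance (log10 p -42.8) and was centred 134 nt past the stop codon. The Tln2 peak covered 8343 nt of a coding transcript and had a log10 p of -2.0, a p-value above 0.001.

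By significance other genes led. The parvin gene Parvg had a log10 p of -207 at 4.14-fold, and Flna, which encodes the actin crosslinker filamin A, had -162 at 3.04-fold. Vcam1, the ligand of the Itga4 receptors, had -200 at 1.95-fold, Ptk2b -60.2 at 1.75-fold and Pxn, the gene of paxillin, -56.5 at 2.82-fold. Each of these 5 was centred in the 3′ UTR. Of the ligand genes 6 of 8 had a peak, against 46.2% of protein-coding genes, and Madcam1 and Fn1 had none. Which cells the RNA of the ligand genes, such as Vcam1, came from was not tested.

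**Figure D4:**
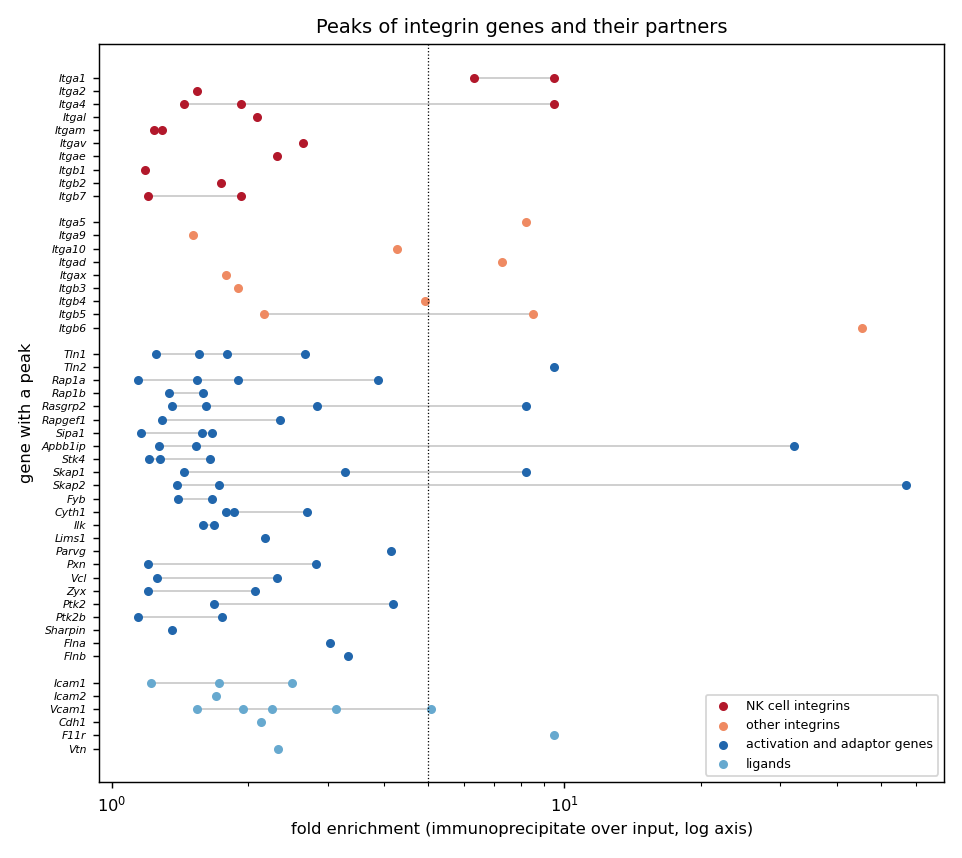
Fold enrichment (log axis) of every peak of the 10 NK cell integrin genes, the other integrin genes, the activation and adaptor genes and the ligand genes that had a peak; each point is 1 peak and lines join the peaks of a gene. The dotted line marks 5-fold, which 3 integrin peaks, at Itga1 and Itga4, pass among the 10 genes.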

How the data were processed

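Per the labels, 4 libraries of splenic NK cells were sequenced, 2 after immunoprecipitation with an m6A antibody and 2 as input. The authors aligned reads with HISAT2 to GRCm38 (build per the submitters' processing notes), called peaks with exomePeak and annotated them with ChIPseeker. How replicates were combined is not given in the sources used here. In the deposited list the fold enrichment is a ratio of immunoprecipitate over input, and the significance is a score, the log10 of an unadjusted p-value with a weakest value of -1.30. Of 20751 rows, 24 repeats were dropped.

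Peaks were placed on the longest protein-coding transcript of their gene in GENCODE M21 (GRCm38) by the centre of the exonic part, which was possible for 15706 peaks (75.8%). Sequences were read from GRCm38 with pysam 0.24.0. The placement was tested on simulated transcripts. The list has no values per sample, so no test was run and all shares are descriptions. The genes and lists were chosen with earlier results of these data known. All 10 integrin genes, all other integrin genes with a peak, and the activation and ligand genes leading by fold enrichment or significance were named by rule, with ties kept; others were chosen after their values were seen. Alternatives covered the fold and p-value limits, the transcript model, the centre of the peak, the window at the stop codon and the motif. The full count over the B cell markers is not reported here.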

Additional observations from a re-analysis of the deposited data

How the results depend on the processing

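Of 47 alternative values for 10 results, 30 stayed within the limits set (1.5 times for a count or median, the counting interval for a density) and 17 did not. The fold threshold moved results most. With peaks of at least 2-fold alone there were 6 integrin peaks in 5 genes, with a median of 4.49, of which 2 were in the 3′ UTR, 2 ran to the last base of the gene (an alternative chosen after seeing the data, like the others for that result) and 0 lay within 200 nt of the stop codon. With those of at least 5-fold there were 3 peaks in 2 genes, and 4 other integrin genes and 5 activation genes had a peak. The 3 peaks of at least 5-fold fell to 0 with a limit of 10-fold, with a p-value under 0.001, and when a peak had to touch a protein-coding transcript. The count near the stop codon was 0 when the genomic span set the centre and 3 with a window of 400 nt. In place of 19.4 DRACH sites per kb there were 3.18 for GGAC and 11.7 for RRACH, since these motifs match fewer sequences. For the other changes the cause was not tested.

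No paired analysis was possible because the list gives no value per sample, and for the same reason leaving out a replicate was not run. Whether the libraries keep strand is not given in the sources used here, so reads from genes on opposite strands, such as Itgae and Haspin, cannot be told apart.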
